A study of Mus musculus with 2 samples.

Results

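Eomes and Tbx21, the genes of the T-box transcription factors eomesodermin and T-bet, were followed as 2 of 32285 genes in the UMI tables of donor T cells taken on days +7 and +14 after transplantation. They were picked by gene symbol, and the choice was selected on measured values, because the difference in Eomes between the days had been seen among earlier results of these data. Their difference between the days is therefore given as a description, and their levels across gates and beside other genes are also given without a test.

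The cells came from a C57BL/6 into BALB/c model of acute graft-versus-host disease, in which irradiated hosts received splenic T cells together with bone marrow depleted of T cells. The labels call the transferred T cells naive. The study's figure legends on these libraries say only splenic T cells from wild-type donors, while its methods refer to a model described with naive T cells. The library names of both days carry PBS, and neither day had an untreated or syngeneic control. The sort kept spleen cells positive for CD45, the donor marker H2Kb and TCRβ and negative for the host marker H2Kd. Cells were pooled before capture, so that each day was 1 library without biological replicates, and day and library cannot be told apart. The sort text attached to both libraries gives day +7, and the day used here was the one in each library's title. The study's methods describe age-matched young adult females and give 1 age range for all experiments. Elsewhere they state that mice of both sexes were used in vivo, so the sex behind these libraries is not settled.

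Day +7 held 7179 kept cells with a median of 9210 UMIs, and day +14 held 7794 kept cells with a median of 8144 UMIs. Cells were gated on transcripts after each was thinned to 4000 UMIs, which left out 198 cells at day +7 and 969 at day +14. T-cell transcripts placed 97.7% and 98.7% of the remaining cells in the T-cell gate. The CD8 gate held 4799 and 4976 cells, the CD4 gate 315 and 415 cells, and a gate on myeloid, erythroid and B-cell transcripts (non-T) 103 and 82 cells. Levels are given as CPM, the UMIs of a gene per 1000000 UMIs, from all UMIs of the gated cells. Every interval is an exact 95% interval that covers counting error only. It treats UMIs as independent, so it is too narrow for a gene whose UMIs sit in few cells, and it says nothing of the spread between mice.

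T-box factors share a DNA-binding domain and recognise related sites. In CD8 T cells, T-bet is known for driving short-lived effector differentiation, the cytotoxic program and IFN-γ, whereas Eomes is known for memory and for high expression in exhausted cells, with partly shared targets. Cytokines such as IL-12 induce Tbx21, and TCF-1, the product of Tcf7, is known as an activator of Eomes.

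Eomes lies on chromosome 9 from 118478212 to 118486132 on the plus strand of mm10, with 3 annotated transcripts in GENCODE M21. Tbx21 lies on chromosome 11 from 97098071 to 97115331 on the minus strand, with 1 annotated transcript. An annotated antisense gene, Gm33460, overlaps Eomes and held 138 UMIs in both libraries together, and no annotated gene overlaps Tbx21.

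The 2 genes moved in opposite directions between the libraries. Over all kept cells, Eomes measured 18.8 CPM (17.9 to 19.7) at day +7 and 86.1 CPM (84.1 to 88.1) at day +14, a log2 ratio of 2.20 (2.12 to 2.27). Tbx21 measured 55.0 CPM (53.4 to 56.5) at day +7 and 39.5 CPM (38.2 to 40.9) at day +14, a log2 ratio of -0.48 (-0.54 to -0.41). The intervals of the days did not overlap for either gene. In summed UMIs, fewer expressing cells and less RNA per cell cannot be told apart.

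In the CD8 gate, Eomes went from 21.5 to 91.9 CPM (log2 ratio 2.09, 2.004 to 2.18) and Tbx21 from 59.0 to 40.9 CPM (log2 ratio -0.53, -0.61 to -0.45). On the log2(CPM + 1) scale, Eomes ranked 22nd from the top of 6831 genes measured at a mean of 10 CPM or more, while 220 genes lay lower than Tbx21. Of those genes, 131 were higher by at least 2-fold at day +14 (1.92%) and 97 were lower by at least 2-fold (1.42%), and Eomes was among the former. Because the choice of Eomes used this contrast, nothing is read from its rank. The median log2 ratio of all 6831 genes was 0.19, and nothing is read from the place of either member against it.

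**Figure D1:**
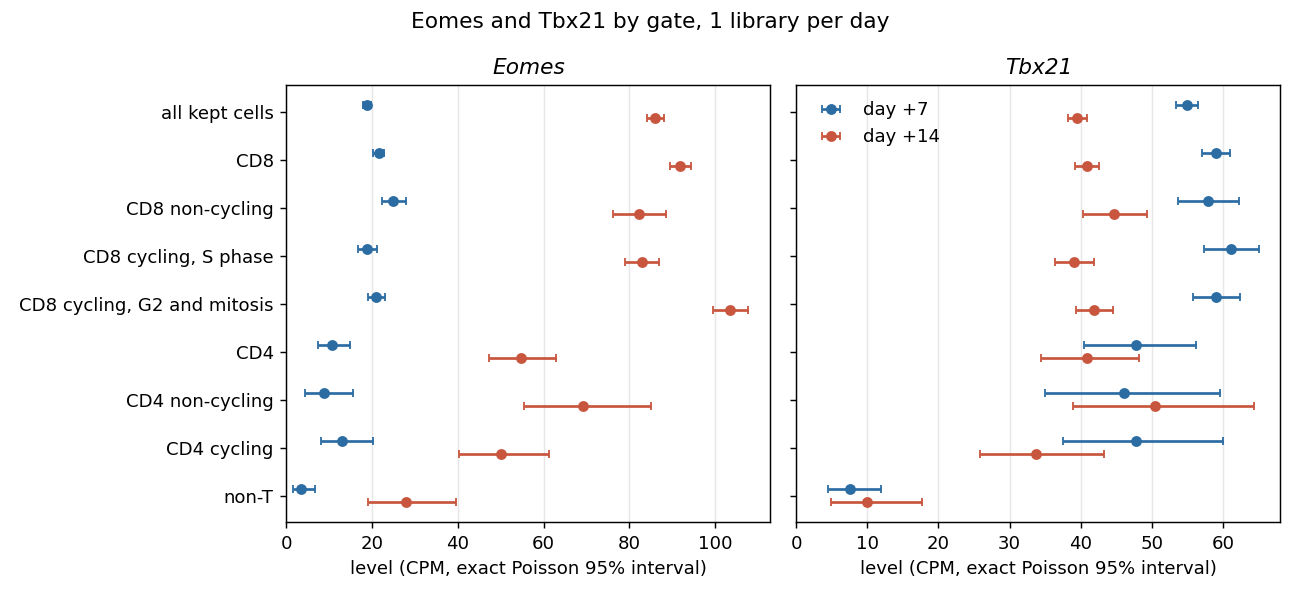
Levels of Eomes (left) and Tbx21 (right) in CPM on the horizontal axes, for 9 gates on the vertical axis; points are single libraries, blue for day +7 and red for day +14, and bars are exact Poisson 95% intervals. Eomes in CPM is higher at day +14 in every gate, in the non-T gate from 8 and 31 UMIs. The Tbx21 intervals of the 2 days separate in the CD8 gates and overlap in the CD4 and non-T gates.

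The Eomes difference was present in cycling and in non-cycling CD8 cells. CD8 cells were split by the summed UMIs of 20 cell-cycle genes into non-cycling cells (4 or fewer) and cycling cells (10 or more). Eomes measured 25.0 and 82.2 CPM in non-cycling CD8 cells (log2 ratio 1.72, 1.53 to 1.92) and 20.1 and 94.0 CPM in cycling CD8 cells (2.23, 2.12 to 2.34). Tbx21 measured 57.9 and 44.6 CPM in non-cycling cells (-0.37, -0.56 to -0.19) and 59.9 and 40.6 CPM in cycling cells (-0.56, -0.65 to -0.48).

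Within each day, Eomes differed slightly with the cycle. The log2 ratio of non-cycling over cycling CD8 cells was 0.32 (0.12 to 0.51) at day +7 and -0.19 (-0.31 to -0.08) at day +14. Within the cycle, Eomes at day +14 was highest in cells with more G2 and mitosis than S-phase transcripts (103 CPM) and lower in S phase (82.9 CPM), a log2 ratio of S phase over G2 and mitosis of -0.32 (-0.41 to -0.23). The same ratio at day +7 was -0.16 (-0.37 to 0.06), an interval that includes 0. Tbx21 differed little over the CD8 gates: the 3 gates ran from 57.9 to 61.1 CPM at day +7 and from 39.1 to 44.6 CPM at day +14. Ratios of neighbours in that order had intervals that included 0, but the highest and lowest gates of a day were not compared directly.

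Over all cells of each gate, Eomes was lower in CD4 than in CD8 cells on both days. It measured 10.7 CPM from 33 UMIs at day +7 and 54.7 CPM from 191 UMIs at day +14, and the ratio of CD8 over CD4 cells was 1.01 (0.52 to 1.56) and 0.75 (0.54 to 0.97) on the log2 scale. Split by the cycle, the ratio was 1.51 (0.66 to 2.53) and 0.25 (-0.07 to 0.58) in non-cycling cells and 0.62 (-0.02 to 1.34) and 0.91 (0.61 to 1.22) in cycling cells, so that 1 of the 2 intervals of each day included 0. The log2 ratio between the days in CD4 cells was 2.36 (1.82 to 2.94). Tbx21 in CD4 cells went from 47.8 to 40.9 CPM, and its log2 ratio of -0.22 (-0.57 to 0.12) included 0. Its CD8 over CD4 ratio was 0.30 (0.06 to 0.55) at day +7 and 0.00 (-0.25 to 0.25) at day +14. Cells with a UMI of Foxp3, the regulatory T-cell factor, numbered 9 and 11 among CD4 cells, too few for a level.

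The non-T gate gives the level in cells with myeloid, erythroid or B-cell transcripts. These cells had passed the TCRβ sort, and whether they lack both factors was not tested. Before thinning, their median was 19544 UMIs at day +7 and 10238.5 UMIs at day +14. All cells deep enough for gating had medians of 9411 and 9213 UMIs. Eomes in the non-T gate measured 3.36 CPM from 8 UMIs at day +7 and 27.9 CPM from 31 UMIs at day +14. Tbx21 in this gate measured 7.56 CPM from 18 UMIs and 9.92 CPM from 11 UMIs. In CPM, the Eomes level in the non-T gate was thus higher at day +14, as in T cells. The shares of non-T cells with an Eomes UMI at equal depth, given below, were close on the 2 days. No change between the days is therefore read from this gate. The part of free RNA or of captured T cells in its Eomes level was not tested.

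The other T-box genes were mostly undetected. Of 15 further family members, 9 had no UMI in either library, where a limit of 3 UMIs allows levels up to 0.035 CPM in the first library and 0.036 CPM in the second. Mga, a T-box protein that pairs with MAX, was the only one above 1 CPM, with 16.1 CPM (15.28 to 16.98) at day +7 and 27.5 CPM (26.4 to 28.7) at day +14. Tbx6 had 24 and 53 UMIs and Tbr1, the closest relative of Eomes, had 10 and 21 UMIs.

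Shares of cells with a UMI were counted at equal depth, 4000 UMIs in every cell. Any Eomes UMI was seen in 8.29% of CD8 cells (7.53 to 9.11) at day +7 and in 28.3% (27.1 to 29.6) at day +14. Any Tbx21 UMI was seen in 20.8% (19.6 to 21.9) and 14.9% (13.9 to 15.9). Most cells with Eomes had 1 UMI of it (87.7% at day +7 and 77.6% at day +14), and the same held for Tbx21 (86.0% and 88.0%), so a cell without a UMI is not a cell without the transcript. In the non-T gate at the same depth, Eomes was seen in 2.91% and 3.66% of cells and Tbx21 in 3.88% and 3.66%.

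CD8 cells with Eomes alone went from 6.44% (5.76 to 7.17) to 24.7% (23.5 to 25.9), and cells with Tbx21 alone from 18.9% (17.8 to 20.0) to 11.2% (10.4 to 12.1). At day +7 there were 309 Eomes-only and 907 Tbx21-only cells, and at day +14 there were 1227 and 558. The larger single class thus changed from Tbx21-only to Eomes-only.

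Cells with both genes made up 1.85% (1.49 to 2.28) of CD8 cells at day +7, 89 of 4799, and 3.66% (3.15 to 4.22) at day +14, 182 of 4976. If the genes were detected independently of each other, the product of their single shares would give 1.72% and 4.21%. With the products taken as fixed, both lay inside the intervals of the observed shares, at day +14 only just. Of the Eomes-positive cells, 22.4% also had Tbx21 at day +7 and 12.9% at day +14, against 20.6% and 15.6% of Eomes-negative cells. The observed share over the product was 1.08 and 0.869, or 0.11 (-0.21 to 0.40) and -0.20 (-0.42 to 0.002) on the log2 scale. At day +14 the interval lay below 0 when the CD8 gate took 1 UMI (-0.21, -0.41 to -0.01) and with a mitochondrial limit of 5% (-0.21, -0.43 to -0.006). Without thinning it lay above 0 on both days, at 0.16 (0.04 to 0.29) and 0.19 (0.11 to 0.27). The direction changed with the depth on both days and, at day +7, also with the seed used for thinning, so no relation between the genes is read from it.

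In the CD4 gate, 2.86% of cells (1.31 to 5.35) had Eomes at day +7 and 16.6% (13.2 to 20.6) had it at day +14. The day +7 share was close to that in the non-T gate, 3 of 103 cells (2.91%, 0.605 to 8.28), whereas the CPM of Eomes was higher in the CD4 gate (10.7, 7.34 to 14.98) than in the non-T gate (3.36, 1.45 to 6.62), so no order is read from these shares. Tbx21 was seen in 17.5% and 14.5% of CD4 cells. Both genes were seen in 0 of 315 CD4 cells at day +7, where a limit of 3 cells allows up to 0.952% of cells with UMIs of both at this depth, and in 8 of 415 (1.93%) at day +14. This does not limit the share of cells that express both.

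**Figure D2:**
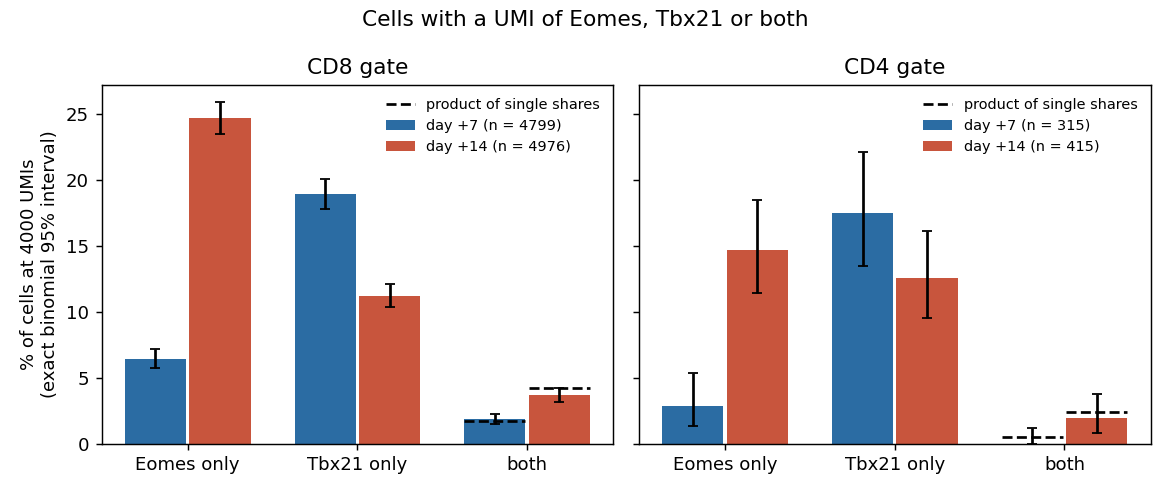
Share of CD8-gated (left) and CD4-gated (right) cells with a UMI of Eomes alone, Tbx21 alone or both after thinning to 4000 UMIs, in percent, with exact binomial 95% intervals; bars are blue for day +7 and red for day +14, and dashed lines give the product of the single shares. In the CD8 gate Eomes-only cells go from 6.44% to 24.7% and Tbx21-only cells from 18.9% to 11.2%, while cells with both make up 1.85% and 3.66%, against products of 1.72% and 4.21%.

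Within non-cycling CD8 cells, 8 markers were used to split the cells of each day, and the level of each member was compared between cells with and without a UMI of the marker. This gave 32 ratios, of which 13 had an interval that excluded 0 (7 for Eomes and 6 for Tbx21). The markers were chosen after earlier results were known. Under a stricter cycling cut that had been tried first, with 746 and 491 non-cycling CD8 cells, 5 of the 13 still excluded 0: Eomes along Ifitm1-3 and Tox at day +7, Tbx21 along Tcf7 at day +14, and Tbx21 along Gzmb on both days.

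Eomes differed most along the Ifitm genes, which encode interferon-induced membrane proteins. At day +7, non-cycling CD8 cells with a UMI of Ifitm1, Ifitm2 or Ifitm3 (771 of 1722 cells, 44.8%) measured 11.02 CPM of Eomes, and cells without one measured 37.0 CPM, a log2 ratio of -1.75 (-2.17 to -1.34). At day +14 such cells were few (70 of 1344, 5.21%), with 47.1 CPM against 84.1 CPM (-0.84, -1.54 to -0.21). The level of Eomes at day +7 fell along the number of Ifitm UMIs, from 37.0 CPM with none to 16.4 CPM with 1, 11.1 CPM with 2 to 4 and 8.76 CPM with 5 or more.

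Tbx21 was not lower in cells with an Ifitm UMI. In non-cycling CD8 cells its level was 59.9 CPM with and 56.1 CPM without an Ifitm UMI at day +7 (0.09, -0.12 to 0.31) and 62.8 against 43.7 CPM at day +14 (0.52, -0.09 to 1.08). In cycling CD8 cells, Eomes was also lower in cells with an Ifitm UMI, at 10.9 against 29.0 CPM at day +7 (-1.42, -1.66 to -1.18) and 63.9 against 94.96 CPM at day +14 (-0.57, -0.89 to -0.27). Tbx21 in cycling CD8 cells was slightly higher with an Ifitm UMI at day +7, at 63.6 against 56.3 CPM (0.18, 0.06 to 0.30), and its day +14 ratio was 0.13 (-0.26 to 0.49).

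Among CD8 cells without an Ifitm UMI, the difference between the days in Eomes was smaller than over all CD8 cells, from 31.0 to 93.1 CPM (log2 ratio 1.59, 1.48 to 1.69). With an Ifitm UMI it was 11.4 against 59.5 CPM (2.39, 2.08 to 2.69). The share of CD8 cells with an Ifitm UMI went from 45.2% to 3.64%, so it fell between the days while Eomes rose. Its part in the Eomes difference was not tested. The Tbx21 log2 ratio was similar in both sets, -0.45 (-0.54 to -0.36) without and -0.41 (-0.71 to -0.12) with an Ifitm UMI.

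**Figure D3:**
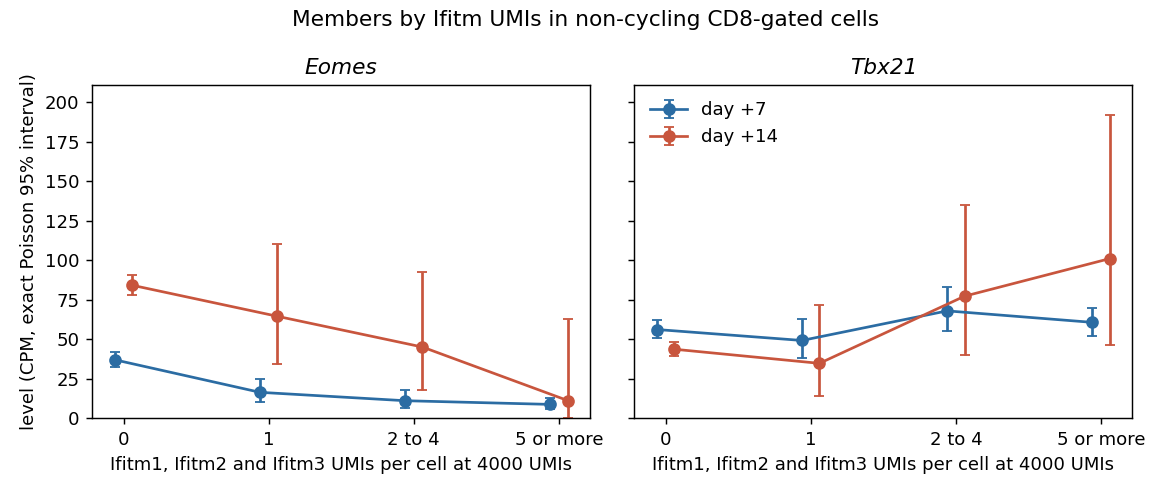
Level of Eomes (left) and Tbx21 (right) in CPM, with exact Poisson 95% intervals, in non-cycling CD8-gated cells grouped by their Ifitm1, Ifitm2 and Ifitm3 UMIs at 4000 UMIs; blue is day +7 and red is day +14. At day +7 Eomes measures 37.0 CPM with no Ifitm UMI and 8.76 CPM with 5 or more, while Tbx21 lies between 49.2 and 67.9 CPM. The Eomes intervals of the day +7 groups with Ifitm UMIs overlap. The day +14 groups with Ifitm UMIs hold 33, 22 and 15 cells.

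Under the cycling cut in use, Tcf7, which encodes TCF-1 of stem-like T cells, separated the members in opposite directions in non-cycling CD8 cells. Non-cycling CD8 cells with a Tcf7 UMI (75 and 126 cells) had more Eomes than cells without one, 41.3 against 24.1 CPM at day +7 (0.77, 0.12 to 1.37) and 104 against 79.6 CPM at day +14 (0.39, 0.06 to 0.70). The same cells had less Tbx21, 36.3 against 59.0 CPM at day +7 (-0.70, -1.38 to -0.09) and 16.4 against 48.0 CPM at day +14 (-1.55, -2.40 to -0.81). The day +14 Tbx21 level in these cells rests on 15 UMIs, and the day +7 levels rest on 25 UMIs of Eomes and 22 of Tbx21. In shares at equal depth the day +7 Eomes difference was small. No Eomes UMI was seen in 89.3% of the cells with a Tcf7 UMI and in 91.3% of those without one. Under the stricter first cycling cut, only the day +14 Tbx21 interval excluded 0, and Tbx21 at day +7 was -0.02 (-0.85 to 0.70). In cycling CD8 cells with a Tcf7 UMI (25 and 79 cells), the intervals excluded 0 for Eomes only at day +14 and for Tbx21 only at day +7. There the Eomes ratios were 0.09 (-0.87 to 0.90) and 0.32 (0.08 to 0.55), and the Tbx21 ratios were -0.69 (-1.39 to -0.08) and -0.33 (-0.80 to 0.10).

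Gzmb, which encodes granzyme B, separated non-cycling CD8 cells by Tbx21, while for Eomes the intervals included 0. Cells with a Gzmb UMI measured 61.2 against 37.2 CPM of Tbx21 at day +7 (0.72, 0.35 to 1.11) and 54.7 against 31.6 CPM at day +14 (0.79, 0.47 to 1.12), whereas the Eomes ratios were 0.02 (-0.44 to 0.52) and -0.08 (-0.30 to 0.14). In cycling CD8 cells the Tbx21 ratios along Gzmb were 0.15 (-0.15 to 0.47) and 0.05 (-0.10 to 0.21), so there it was not detectable. Eomes in cycling CD8 cells gave 0.26 (-0.28 to 0.86) at day +7 and was slightly lower with a Gzmb UMI at day +14, at 90.5 against 102.8 CPM (-0.18, -0.28 to -0.09). Gzma, the gene of granzyme A, gave a Tbx21 ratio of 0.12 (-0.15 to 0.40) at day +7 and 0.49 (0.10 to 0.87) at day +14.

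Cells with a UMI of Tox, a factor of chronically stimulated T cells, had more Eomes at day +7 (36.5 against 21.9 CPM, log2 ratio 0.74, 0.38 to 1.09) and, by less, at day +14 (87.3 against 73.6 CPM, 0.25, 0.02 to 0.48). Tbx21 ratios along Tox were -0.10 and -0.13, with intervals that include 0. Along Pdcd1, which encodes the inhibitory receptor PD-1, all 4 intervals included 0. Klrg1, a marker of terminal effector cells, gave a Tbx21 ratio of 0.16 (-0.15 to 0.47) at day +7 and 0.44 (0.02 to 0.84) at day +14. Il7r, the IL-7 receptor gene of memory precursors, gave an Eomes ratio of -0.43 (-0.84 to -0.03) at day +7 and -0.32 (-0.93 to 0.24) at day +14.

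**Figure D4:**
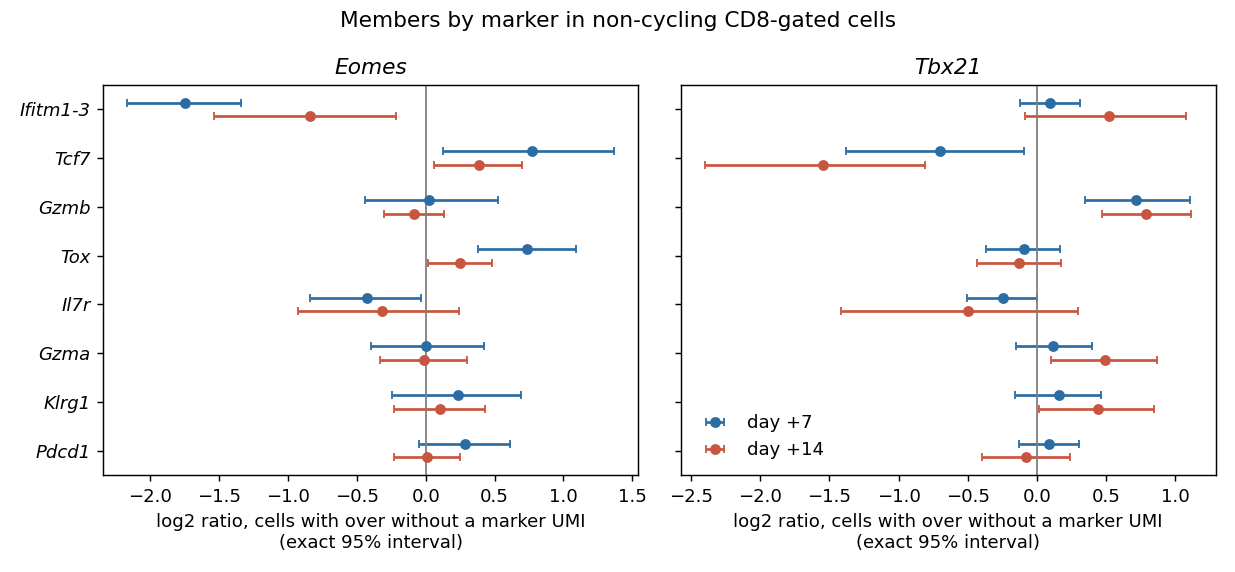
Log2 ratio of the Eomes (left) and Tbx21 (right) level in non-cycling CD8-gated cells with over without a UMI of each of 8 markers, on separate horizontal axes, with exact 95% intervals; blue is day +7 and red is day +14. Under the cycling cut in use, Eomes is lower in Ifitm1-3 cells and higher in Tcf7 and Tox cells on both days. Tbx21 under this cut is lower in Tcf7 cells and higher in Gzmb cells on both days.

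Cells were also compared by the members themselves, at equal depth in non-cycling CD8 cells (151 Eomes-positive cells at day +7 and 346 at day +14; 365 and 225 Tbx21-positive cells). Genes were ranked by the smaller of their ratios on the 2 days among genes at 50 CPM or more with the same sign on both days. Ifitm1 stood first among the genes lower in Eomes-positive cells, at 351 against 995 CPM at day +7 (log2 ratio -1.50, -1.71 to -1.31) and at 1.45 against 62.6 CPM at day +14 (-5.44, -8.49 to -3.57, from 2 UMIs in the positive cells). AA467197 followed with -0.87 and -0.86, then Rnf138, Tuba1a and Gata3 with ratios between -0.68 and -0.43. Ifitm2 and Ifitm3 stood at log2 ratios of -1.95 and -1.89 at day +7.

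The genes highest in Eomes-positive cells were Actn1 (0.64 and 0.48), Tcof1, Lef1, Sat1 and Eid1, all with ratios below 0.7. Lef1, which encodes a factor of the same family as TCF-1, gave 0.44 (-0.04 to 0.90) and 0.39 (0.00 to 0.77). For Tbx21-positive cells the highest were Klrc2, an NK-cell receptor gene, and Rlf, Elf2, Zfp207 and Nbeal2, and the lowest were Uchl3, Cenpa, Kdelr2, Rsl24d1 and Mpdu1, many with an interval that included 0 on at least 1 day.

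The listed genes in this paragraph are examples, and not all of them follow the naming rule given below. How many listed genes differed is not given, so no pattern is read from them. Id2, which encodes an inhibitor of E proteins needed by effector cells, was lower in Eomes-positive cells (-0.41, -0.58 to -0.25 at day +7 and -0.47, -0.58 to -0.35 at day +14). Id2 was higher in Tbx21-positive cells (0.18, 0.08 to 0.27 and 0.28, 0.17 to 0.40). Gzmk, the gene of granzyme K, was higher in Eomes-positive cells (0.75, 0.47 to 1.02 and 0.29, 0.06 to 0.51). Klrc1, an inhibitory NK-cell receptor gene, was lower in Eomes-positive cells (-0.41 on both days). In Tbx21-positive cells at day +14, Tcf7 was lower (-1.96, -3.05 to -1.05, from 10 UMIs) and Gzmb higher (0.67, 0.53 to 0.80). In cycling CD8 cells, Ifitm1 was lower in Eomes-positive cells at day +7 (97.4 against 408 CPM, -2.07, -2.41 to -1.74), Gzmk higher (0.99, 0.74 to 1.23) and Id2 lower (-0.35, -0.51 to -0.20).

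Genes upstream of the T-box factors were followed in the CD8 gate as a list of 20, of which 17 passed 10 CPM. Il21r, the IL-21 receptor gene, was higher by at least 2-fold at day +14 (log2 ratio 1.03), and Il2ra (-2.76) and Il12rb2 (-1.14), which encode subunits of the IL-2 and IL-12 receptors, were lower. That is 1 of 17 higher and 2 of 17 lower, against 1.92% and 1.42% of all genes. The genes with most UMIs were Il2rb (279 to 365 CPM), Ifngr1 (299 to 271 CPM) and Il18r1 (205 to 158 CPM), which stayed within 2-fold.

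Genes reported as targets of either factor numbered 26, and 25 passed. Of these, 3 were higher, the chemokine genes Xcl1 (log2 ratio 1.65), Ccl3 (1.61) and Ccl5 (1.20), and 4 were lower, against 1.92% and 1.42% of all genes. The 4 lower genes were Gzma (-4.05), Gzmb (-1.48), S1pr1 (-1.27), a receptor for exit from lymphoid tissue, and Hopx (-1.08). The remaining 18 stayed within 2-fold, among them Nkg7, at 2073 and 2463 CPM, and Ifng, at 180 and 168 CPM. The median of the list was -0.05, against 0.19 for all genes.

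Of 30 factors that act beside or against T-bet and Eomes, 22 passed, 6 were higher and 0 lower: Ikzf2 (2.34), Tox (1.73), Runx1 (1.28), Ikzf3 (1.15), Zeb2 (1.14) and Rora (1.12). For this list and the next 2, the shares over all genes were again 1.92% higher and 1.42% lower. Of these factors, Id2, Klf2 and Runx3 had the most UMIs and stayed within 2-fold, at -0.28, -0.77 and 0.22. Among 18 receptor and exhaustion genes, 14 passed, with Tox, Nr4a2 (1.53) and Cd160 (1.05) higher and Il7r (-2.51) lower. Tox counts in this list and in the one before. The other 10 stayed within 2-fold, among them Pdcd1 at 0.67 and Cd27 at 0.41. The medians of these lists were 0.45 and 0.43, against 0.19 for all genes. Of 10 NK and innate-like genes, 2 passed, with Rora higher and Klre1 at 0.63, and the NK-cell receptor genes Klrb1c and Ncr1 went from 375 to 34 UMIs and from 33 UMIs to 1 UMI in the CD8 gate.

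**Figure D5:**
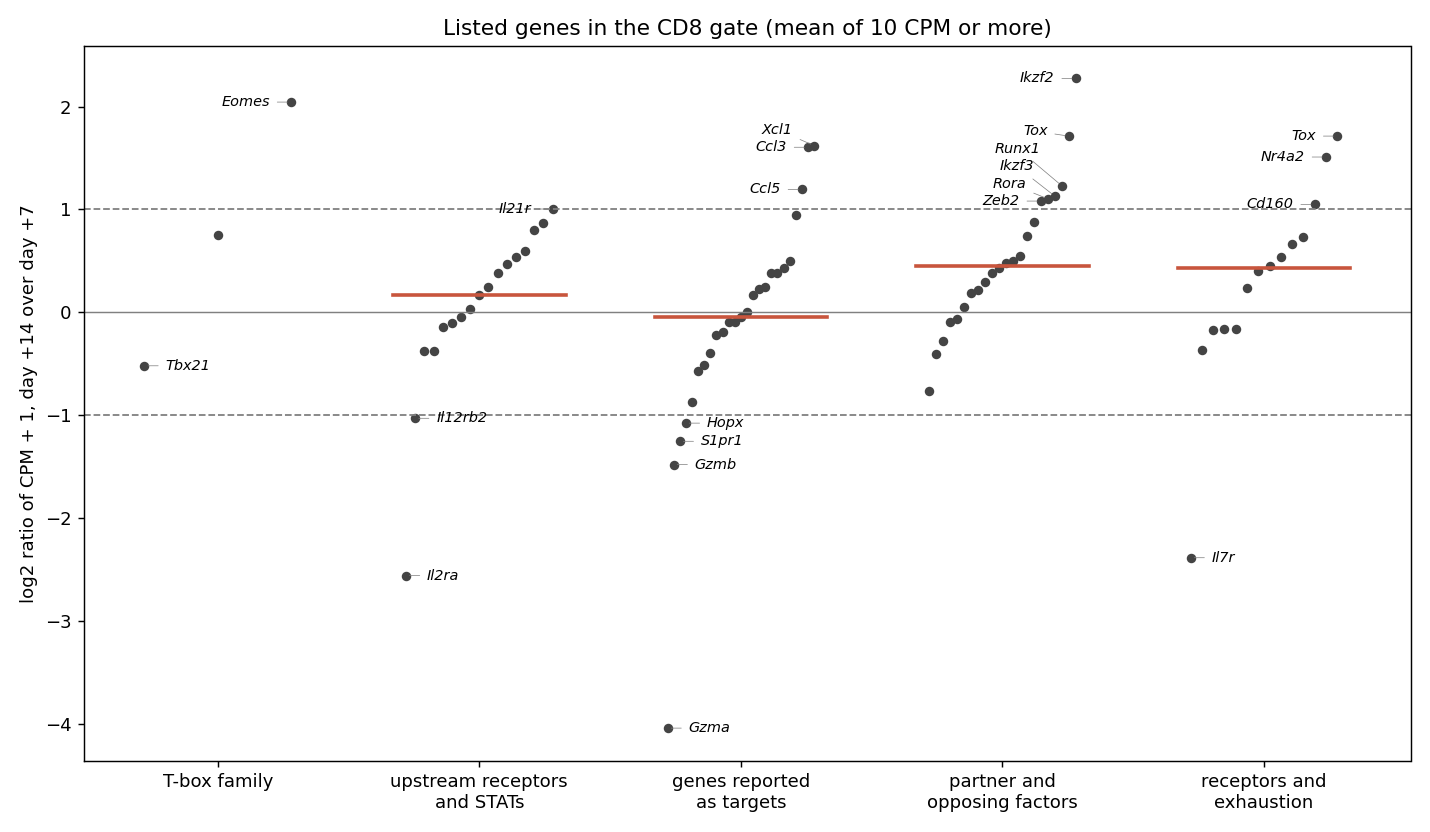
Log2 ratio of CPM + 1 at day +14 over day +7 in the CD8 gate (vertical axis) for the genes of 5 lists that reached a mean of 10 CPM, sorted within each list; orange lines are list medians, dashed lines mark 2-fold, and genes beyond them are named. The reported targets spread from Gzma at the bottom to Xcl1 at the top, while Eomes (2.04) and Tbx21 (-0.52) lie on opposite sides of 0.

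Over 8 groups (day by CD4 or CD8 by cycling or non-cycling), which share libraries and differ in depth, the genes most like Eomes among 3361 were Tmem256, Gnas, Cmip, Ankrd11 and Dock10, with Pearson r from 0.97 to 0.96. Those most like Tbx21 were Lamtor4 (0.95), Fcer1g (0.90), Ppp2r5a, AI413582 and Lamtor2. Eomes and Tbx21 had r of -0.39 with each other over these groups. These values describe 8 groups that are not independent and carry no test.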

How the data were processed

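The deposited counts are whole UMIs per gene and barcode, which the authors made with Cell Ranger 6.1.2 and the mm10 genome per the labels. Barcodes with 500 to 7500 genes and at most 15% mitochondrial UMIs were kept. Cells were thinned without replacement to 4000 UMIs (seed 1) for gating and shares, and levels used all UMIs. Gates were at least 3 T-cell UMIs, 2 CD8 UMIs without Cd4, or 1 Cd4 UMI without CD8, and at least 10 non-T UMIs. Poisson, Clopper-Pearson and conditional binomial intervals (scipy 1.17.1) were exact, and no test was run with 1 library per day.

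Members, lists, markers and gate thresholds were chosen with earlier results of these data known. The cycling cut (at least 10, at most 4 UMIs) replaced a first cut (at least 3, at most 1) after the member levels and shares under the first cut had been seen. Genes to name were the 3 with most UMIs per list, those past 2-fold, and the 5 highest and lowest by likeness or by positive over negative cells. Some listed genes compared between positive and negative cells were given as examples beyond this rule. No doublet call was made. There were 20 barcodes found in both libraries, and 20 and 17 of them were kept. Calculations were tested on simulated data.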

Additional observations from a re-analysis of the deposited data

Results flagged for a closer look

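The barcodes left out by the gene and mitochondrial filters carried member UMIs above the limit that 3 UMIs set. In 176 barcodes left out at day +7, Tbx21 measured 39.5 CPM from 15 UMIs, against a limit of 7.90 CPM, while Eomes had 3 UMIs and lay at that limit. In 249 barcodes left out at day +14, Eomes measured 101 CPM (73.1 to 136) from 43 UMIs and Tbx21 42.3 CPM (25.1 to 66.8) from 18 UMIs, against a limit of 7.05 CPM. These levels were not part of any comparison above.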

How the results depend on the processing

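No paired analysis was possible because each day was 1 library. Over 6 results and their alternatives, both members kept the sign of their log2 ratio in all kept cells and in the CD8 gate. With median-ratio scaling, Eomes was 1.99 in all kept cells and 1.87 in the CD8 gate, and Tbx21 was -0.68 and -0.75. With the mean of per-cell CPM, Eomes was 2.01 and 1.94, and without the 5% of cells with the most UMIs it was 2.06 in all kept cells. The shares with both genes depended on depth by construction: at day +7 they were 0.224% at 2000 UMIs, 3.16% at 6000 and 8.64% without thinning, and at day +14 1.54%, 7.32% and 18.2%. Another seed gave 1.49% and 3.89%. The log2 of the observed share over the product was 0.11 at day +7 and -0.20 at day +14, and went to -1.10 and 0.28 at 2000 UMIs, -0.13 and -0.09 with another seed, and 0.16 and 0.19 without thinning, so no relation between the genes is read from it.

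The first cycling cut came before the cut in use, which was chosen after member values under the first cut had been seen. The first cut is given here as an added alternative. Under the first cut, non-cycling CD8 cells numbered 746 and 491, the Eomes log2 ratio was 1.71 and the Tbx21 ratio -0.44. The share with both genes at day +14 was 5.50% against a product of 4.08%, where the cut in use gave 3.72% against 4.31%. Of 32 marker ratios, 29 kept their sign. Intervals excluded 0 for 13 under the cut in use, for 7 under the first cut and for 5 under both. Tbx21 along Tcf7 at day +7 was -0.02 (-0.85 to 0.70), Eomes along Ifitm1-3 at day +14 was -0.22 (-1.36 to 0.73), and Eomes along Pdcd1 at day +7 was 0.71 (0.18 to 1.25) under the first cut.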
